A study of Rattus norvegicus with 20 samples.

Results

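The change between the injured and the uninjured dorsal root ganglion (DRG) of the same rat was compared between rats fed soy oil and rats fed fish oil. The members were the 12 libraries, of 20 in the series, that came from rats with both ganglia sequenced: the left and right DRG of 3 SOD-CCI rats and of 3 FOD-CCI rats. For each rat the left level was divided by the right level, giving 1 ratio per gene and rat, and the 3 ratios of the soy oil diet (SOD) were set against the 3 of the fish oil diet (FOD). Positive log2 ratios mean a higher level on the left, and a negative FOD minus SOD difference means that the left-to-right change was smaller, or more negative, in the FOD-CCI rats.

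All rats were female Sprague-Dawley, 8 to 10 weeks old at the start, with no genetic change. SOD was an AIN-93G diet made with soy oil, and FOD was the same base with fish oil supplying the n-3 fatty acids DHA and EPA. Each diet was given for 4 weeks before surgery. Chronic constriction injury (CCI) was made by tying 4 loose chromic gut ligatures around the left sciatic nerve, and the rats then recovered for 1 week. The sources used here give different times for how long the rats were kept before tissue was taken. The right DRG of the injured rats is called contralateral. Sham rats (SOD-CT, n = 4 and FOD-CT, n = 3) had the nerve exposed without ligatures, but no right ganglion of theirs was analysed here, so they have no within-rat ratio and serve only as reference levels. FOD-CCI replicate 4 had a left library without a right one and was not used in the comparison.

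The DRG holds the cell bodies of sensory neurons, wrapped by satellite glia and surrounded by Schwann cells, macrophages, vessels and a connective-tissue capsule that joins the meninges near the spinal cord. When the axon is damaged, the neuron turns on transcription factors such as Atf3 and Sox11, peptides such as galanin and neuropeptide Y, and genes of axon growth, and it releases the cytokine Csf1, which acts on macrophages through Csf1r. A ratio within a rat removes what both of its ganglia share, such as diet, handling and circulating factors, but not how each ganglion was cut out. In whole tissue, fewer cells of a type and less RNA per cell cannot be told apart.

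The 12 libraries held 22547190 to 54437581 gene-assigned counts. Neuronal markers were present in each of them, yet the right library of FOD-CCI replicate 1 stood apart. Its 10 neuronal markers summed to 4599 CPM (read counts scaled to library size, with TMM factors), against 13770 to 20200 in the other 11 libraries. The 10 markers of spinal cord glia and neurons summed to 4838 CPM in that library and to 2995 CPM in the left library of the same rat, against 27.5 to 76.8 CPM in the other 10. Slc17a7, the vesicular glutamate transporter of large sensory neurons, had no count in the right library of this rat and 87.6 CPM in the left one. The left library of FOD-CCI replicate 2 had 23290 CPM of red cell markers and 3094 CPM of neutrophil markers, and the right library of FOD-CCI replicate 3 had 8170 CPM of skeletal muscle markers. Because of this, many differences below are also given without FOD-CCI replicate 1. Sham libraries varied as well, with 153800 CPM of skeletal muscle markers in SOD-CT replicate 1 and 23210 CPM in FOD-CT replicate 2. FOD-CT replicate 1 held 4148 CPM of spinal cord markers. Some ends of the sham ranges given below come from these sham libraries. The part of the makeup of all these libraries in the results was not tested.

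**Figure D1:**
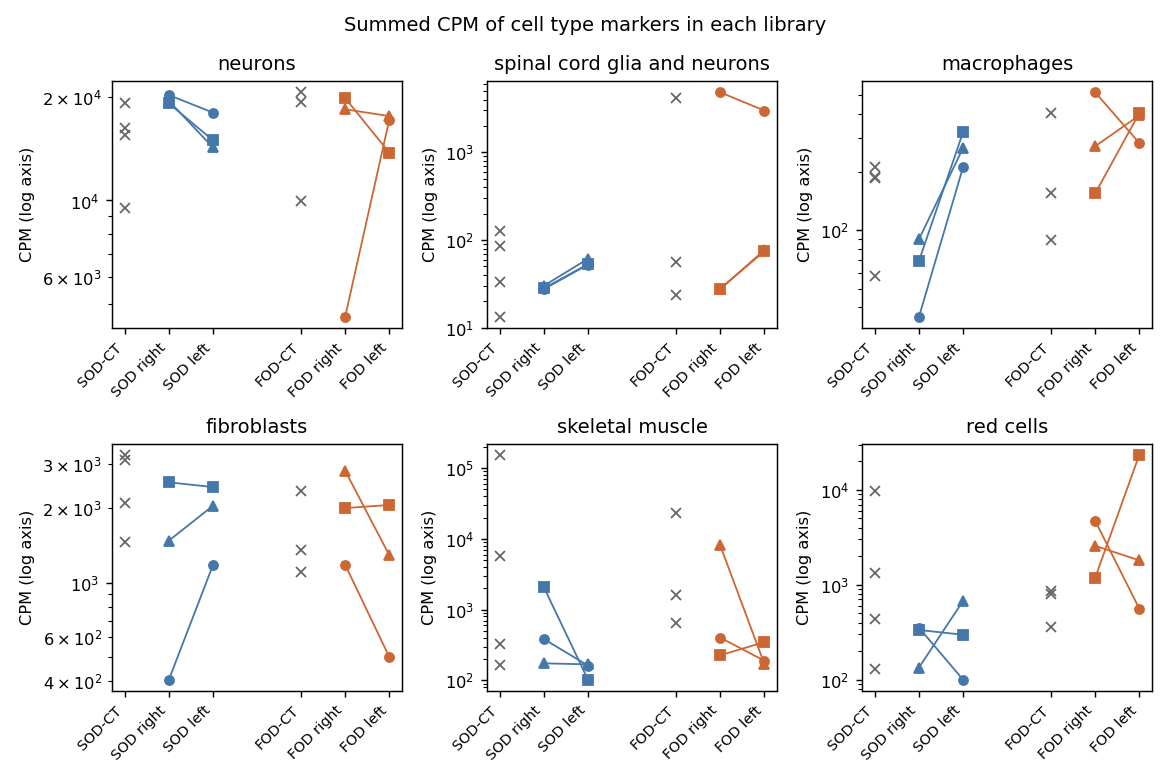
Summed CPM (log axis) of 6 marker lists, with a line joining the right and left DRG of each rat (circle, square and triangle for replicates 1, 2 and 3; SOD-CCI blue, FOD-CCI orange) and crosses for sham rats. FOD-CCI replicate 1 shows 4599 CPM of neuronal markers on the right and 4838 and 2995 CPM of spinal cord markers on the right and left; 1 FOD-CT library also reached 4148 CPM of spinal cord markers.

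Of 39747 genes in the count table, 14549 passed the filter on low counts and were tested. Genes are called here when the p adjusted by Benjamini-Hochberg did not exceed 0.1 and the change was 1.2-fold or more. No gene was called for the diet difference in the left-to-right change by edgeR's quasi-likelihood test (0 of 14549, 0%, lowest adjusted p = 0.997). At an unadjusted p under 0.05, 424 genes differed, 117 of them higher on FOD (0.804% of genes tested) and 307 lower on FOD (2.11%). DESeq2's Wald test on the same counts called 60 genes, 57 of them lower on FOD. The 3 FOD ratios all lay below the 3 SOD ratios for 749 genes (5.15%) and all above them for 581 genes (3.99%). Within each diet, the edgeR test called 19 genes for left against right in SOD-CCI (0.131%), 17 of them higher on the left, and 2 genes in FOD-CCI (0.0137%). Without FOD-CCI replicate 1 these counts were 0 for the diet difference, 471 for SOD and 137 for FOD. All 3 counts come from a single fit with a shared estimate of the spread.

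The size of the side difference, taken as the median over genes of the absolute log2 ratio, was 0.45, 0.34 and 0.27 in SOD-CCI replicates 1, 2 and 3 and 0.50, 0.38 and 0.45 in FOD-CCI replicates 1, 2 and 3. The ranges overlapped, and the mean difference of 0.09 was not separated from the spread between rats (exact permutation test, two-sided, p = 0.2, where 0.1 is the smallest p that 3 against 3 rats can give). The share of genes differing by more than 2-fold between sides was 16.3%, 13.3% and 8.44% in the SOD-CCI rats and 22.9%, 16.1% and 20.0% in the FOD-CCI rats. Across genes, the ratios of any pair of SOD-CCI rats correlated at r = 0.35 to 0.37. For the pairs of FOD-CCI rats r was -0.12, 0.01 and 0.09, and for pairs of rats on different diets it ranged from -0.15 to 0.33. These correlations are over 14549 genes, which are not independent replicates, and are descriptions only.

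A set of injury genes was higher on the injured than on the uninjured side of every rat on both diets. Some of these left levels were not above those of sham libraries, as given below. In all, 764 genes were higher on the left in 6 of 6 rats (5.25% of genes tested) and 414 were lower in 6 of 6 (2.85%). Arg1 and Ssc5d were called in both diets. Arg1, the enzyme arginase 1, had log2 ratios of 3.62, 3.44 and 3.78 in the SOD-CCI rats and 3.00, 4.13 and 4.79 in the FOD-CCI rats. Its level was 0.774 to 1.33 CPM on the right and 11.5 to 15.1 CPM on the left on SOD, and 0.633 to 1.04 CPM on the right and 5.53 to 30.6 CPM on the left on FOD. The left and right levels did not overlap on either diet, and the ratios of the diets did. Sham libraries held 0 to 7.85 CPM of Arg1, the highest being FOD-CT replicate 1. The left level of 5.53 CPM, in FOD-CCI replicate 1, lay within that range. The change was 3.69 ± 0.44 (SE, edgeR adjusted p = 0.0449) on SOD and 4.10 ± 0.46 (edgeR adjusted p = 0.0717) on FOD, a difference of 0.41 ± 0.58, or 0.87 without FOD-CCI replicate 1.

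Ssc5d, a soluble scavenger receptor, had log2 ratios of 2.19, 2.12 and 1.41 on SOD and 3.13, 2.46 and 2.84 on FOD. Every FOD ratio was above every SOD ratio, and the difference of 0.92 ± 0.34 was not called (unadjusted p = 0.0243, edgeR adjusted p = 0.997). The 3 right libraries on FOD held 1.86, 4.03 and 11.1 CPM of Ssc5d, below the 14.2, 15.1 and 20.4 CPM on SOD and, in 2 of 3, below the sham range of 8.38 to 27.2 CPM. The left libraries held 16.8, 22.5 and 80.2 CPM on FOD and 64.9, 65.9 and 54.3 CPM on SOD, so in 2 of 3 FOD-CCI rats the larger ratio went with a lower level on both sides. The left levels of these 2 rats lay within the sham range.

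Ccl2, a chemokine that draws monocytes, showed ratios of 1.67, 3.13 and 3.20 on SOD and 2.63, 2.95 and 2.10 on FOD. Pdlim1, a cytoskeletal adaptor protein, showed 1.44, 1.60 and 1.30 on SOD and 1.27, 1.08 and 1.63 on FOD. For both genes the diets overlapped. The differences were -0.11 ± 0.45 and -0.12 ± 0.26, each smaller than its SE. In FOD-CCI replicate 1 Ccl2 stood at 3.50 (right) and 22.0 CPM (left), with 15.1 to 51.5 CPM in sham libraries. Pdlim1 stood at 10.3 (right) and 24.9 CPM (left) in that rat, with 18.55 to 49.9 CPM in sham libraries. Both right levels were thus below the sham range, and both left levels within it. Pla2g7, a phospholipase that cleaves platelet-activating factor, was the leading gene lower on the left, with ratios of -1.94, -2.22 and -2.43 on SOD and -0.77, -1.69 and -2.20 on FOD. Its difference of 0.64 ± 0.38 was 0.25 without FOD-CCI replicate 1.

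**Figure D2:**
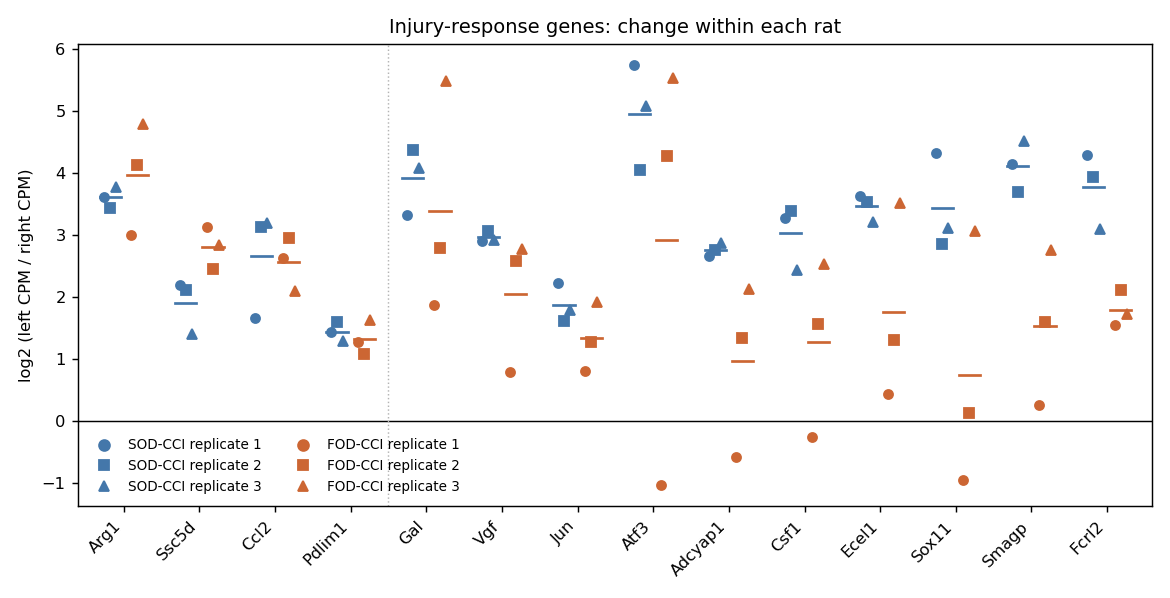
Log2 left-to-right ratio of CPM for 14 injured-side genes in each of the 3 SOD-CCI and 3 FOD-CCI rats, with a bar at the mean of each diet and a dotted line after the first 4 genes. FOD-CCI replicate 1 has the lowest ratio of all 6 rats for Gal, Vgf, Jun, Atf3, Adcyap1, Csf1, Ecel1, Sox11, Smagp and Fcrl2, while Arg1, Ssc5d, Ccl2 and Pdlim1 exceed 1 in that rat too. The left levels of these last 4 genes in that rat lay within the sham ranges.

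Most neuronal injury genes were higher on the left in all 3 SOD-CCI rats and spread widely in the FOD-CCI rats. Among 12 regeneration transcription factors, 9 had a lower change on FOD and 2 did so at an unadjusted p under 0.05 (2.11% of all genes tested did), none was called, and the median difference was -0.40, against 0.03 over all genes tested. Atf3, the marker of an injured sensory neuron, had log2 ratios of 5.74, 4.04 and 5.08 on SOD and -1.02, 4.28 and 5.52 on FOD. The difference of -1.53 ± 1.47 rested on FOD-CCI replicate 1, and without that rat it was -0.05. In that rat Atf3 stood at 6.67 CPM on the right and 3.24 CPM on the left. The other left libraries of the comparison held 213 to 513 CPM, and sham libraries 12.6 to 50.3 CPM. The left library of that rat held 17090 CPM of neuronal markers, and the reason for its low Atf3 was not tested. Jun, the partner of Atf3 in AP-1 dimers, showed 2.23, 1.62 and 1.79 on SOD and 0.81, 1.27 and 1.93 on FOD, a difference of -0.54 ± 0.35, or -0.28 without that rat. Sox11, a factor that promotes axon regrowth, showed 4.31, 2.86 and 3.11 on SOD and -0.95, 0.13 and 3.07 on FOD. For Sox11 the low ratios came from 2 FOD-CCI rats, and the difference was -2.68 ± 0.98 with all rats and -1.79 without FOD-CCI replicate 1, neither of them called. Cebpd, a factor induced by inflammation, was at 1.44, 0.73 and 1.26 on SOD and -1.65, 0.49 and 0.56 on FOD, so the diets did not overlap, with a difference of -1.31 ± 0.58 that was -0.62 without FOD-CCI replicate 1. The median over the 12 factors was -0.05 without FOD-CCI replicate 1.

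Of 7 injury-induced neuropeptides tested, 5 had a lower change on FOD, 1 of them at an unadjusted p under 0.05, and in 3 the FOD ratios lay wholly below the SOD ratios, as they did for 5.15% of all genes tested. Adcyap1, which encodes the peptide PACAP, had ratios of 2.66, 2.75 and 2.86 on SOD and -0.57, 1.34 and 2.13 on FOD. The right DRG differed little between diets, at 37.7, 32.5 and 28.8 CPM on SOD and 27.1, 40.1 and 52.2 CPM on FOD, within the sham range of 10.1 to 53.5 CPM. The low end of that range was SOD-CT replicate 1, rich in muscle markers, and the other sham libraries held 29.1 CPM or more. The left DRG held 238, 220 and 210 CPM on SOD and 18.2, 102 and 228 CPM on FOD. The difference of -1.76 ± 0.60 (unadjusted p = 0.0163, edgeR adjusted p = 0.997) was -1.02 without FOD-CCI replicate 1. Cck, which encodes cholecystokinin, also had FOD ratios below the SOD ratios, with 5.40, 3.84 and 3.16 on SOD, 0.31, 3.07 and 2.86 on FOD and a difference of -2.03 ± 0.90, or -1.15 without FOD-CCI replicate 1. In FOD-CCI replicate 1 Cck stood at 43.1 CPM on the right and 53.5 CPM on the left, against 0.112 to 4.88 CPM in the other right libraries. The low ratio of that rat thus went with a high right level. The sham library FOD-CT replicate 1, rich in spinal cord markers, held 48.05 CPM of Cck. Gal, which encodes galanin, overlapped between diets, with 3.32, 4.38 and 4.08 against 1.88, 2.79 and 5.48. Its difference of -0.55 ± 0.81 turned to 0.21 without FOD-CCI replicate 1. Npy, which encodes neuropeptide Y, had the largest ratios, 7.71, 6.89 and 8.07 on SOD and 6.78 and 6.71 in FOD-CCI replicates 2 and 3, and was at -2.82 in replicate 1. Its difference was -2.49 ± 2.11, and -0.82 without FOD-CCI replicate 1. The left library of that rat held 8.55 CPM of Gal and 5.16 CPM of Npy. The other left libraries of the comparison held 93.97 to 392.5 CPM of Gal and 255.6 to 756.9 CPM of Npy.

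Vgf, a secreted precursor of neuropeptides, was called on SOD (2.97 ± 0.37, edgeR adjusted p = 0.0449), with ratios of 2.91, 3.07 and 2.91. On FOD its ratios were 0.80, 2.59 and 2.77, all below those on SOD, and the difference was -0.90 ± 0.49, or -0.28 without FOD-CCI replicate 1. Promoters of the genes named here were searched for the AP-1 motif (TGACTCA or TGAGTCA, each the reverse complement of the other) and for the cyclic AMP response element (TGACGTCA, its own reverse complement), since Jun and Atf3 bind such motifs. RefSeq promoters of build GRCr8, 250 bases before to 50 bases after the start, were at hand for 43 of 63 genes. The AP-1 motif was in 3 of them, Pla2g7, Gbp2 and Gja1, and in 4.63% of all 33469 promoters. The cyclic AMP response element was in 1 of them, Vgf, and in 1.83% of all promoters. The Vgf promoter, at chr12:25276971-25277270 on the minus strand, is printed in the direction of the gene because it is the only one of these genes with the response element, which is in capitals.
Vgf promoter: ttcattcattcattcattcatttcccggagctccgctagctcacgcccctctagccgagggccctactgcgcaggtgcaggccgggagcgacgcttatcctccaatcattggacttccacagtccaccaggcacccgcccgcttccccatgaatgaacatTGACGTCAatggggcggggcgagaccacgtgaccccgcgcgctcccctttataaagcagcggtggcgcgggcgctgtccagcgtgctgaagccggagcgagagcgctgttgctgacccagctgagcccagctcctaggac
The motif begins 90 bases before the start, and a match in letters is a description and not evidence of binding.

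All 13 genes of axon growth and injury response that were tested had a positive mean change on both diets, and 10 of them were higher on the left in 6 of 6 rats. Their median per rat was 1.90, 2.10 and 1.99 on SOD and 0.47, 1.30 and 2.49 on FOD, so the diets overlapped. The median difference was -0.44, and -0.066 without FOD-CCI replicate 1. Csf1, the cytokine released by injured neurons, had ratios of 3.28, 3.39 and 2.43 on SOD and -0.24, 1.56 and 2.53 on FOD. Ecel1, a neuronal metallopeptidase, had 3.63, 3.54 and 3.21 on SOD and 0.45, 1.30 and 3.52 on FOD. The right level of Ecel1 was 32.9 CPM in FOD-CCI replicate 1 and 2.53 to 5.93 CPM in the other right libraries. In both genes FOD-CCI replicate 3 was as high as the SOD-CCI rats. The differences were -1.73 ± 0.64 for Csf1 and -1.76 ± 0.71 for Ecel1, and -0.98 and -1.02 without FOD-CCI replicate 1. Cacna2d1, the calcium channel subunit that gabapentin binds, showed 2.50, 2.90 and 2.12 on SOD and 1.19, 1.08 and 2.66 on FOD, with a difference of -0.86 ± 0.45.

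Fcrl2 and Smagp, both called on SOD, had the clearest gaps among injured-side genes. Fcrl2, a member of the Fc receptor-like family, had ratios of 4.29, 3.94 and 3.10 on SOD and 1.56, 2.12 and 1.72 on FOD. The right DRG held 1.34, 3.42 and 4.80 CPM on SOD and 0.759, 5.51 and 22.9 CPM on FOD, and the left DRG 27.5, 53.3 and 41.8 CPM on SOD and 2.36, 24.2 and 75.8 CPM on FOD. Thus the lower FOD ratio went with low levels on both sides in replicate 1 and with a high right level in replicate 3, above the sham range of 0 to 15.1 CPM. The difference of -1.94 ± 0.40 had an unadjusted p of 0.000933 and an edgeR adjusted p of 0.997, and DESeq2 called it (adjusted p = 0.0324). Smagp, a small transmembrane adhesion protein, had 4.14, 3.70 and 4.51 on SOD and 0.27, 1.60 and 2.75 on FOD, with a difference of -2.57 ± 0.68 (edgeR adjusted p = 0.997, DESeq2 adjusted p = 0.0753). Without FOD-CCI replicate 1 the differences were -1.85 for Fcrl2 and -1.98 for Smagp.

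**Figure D3:**
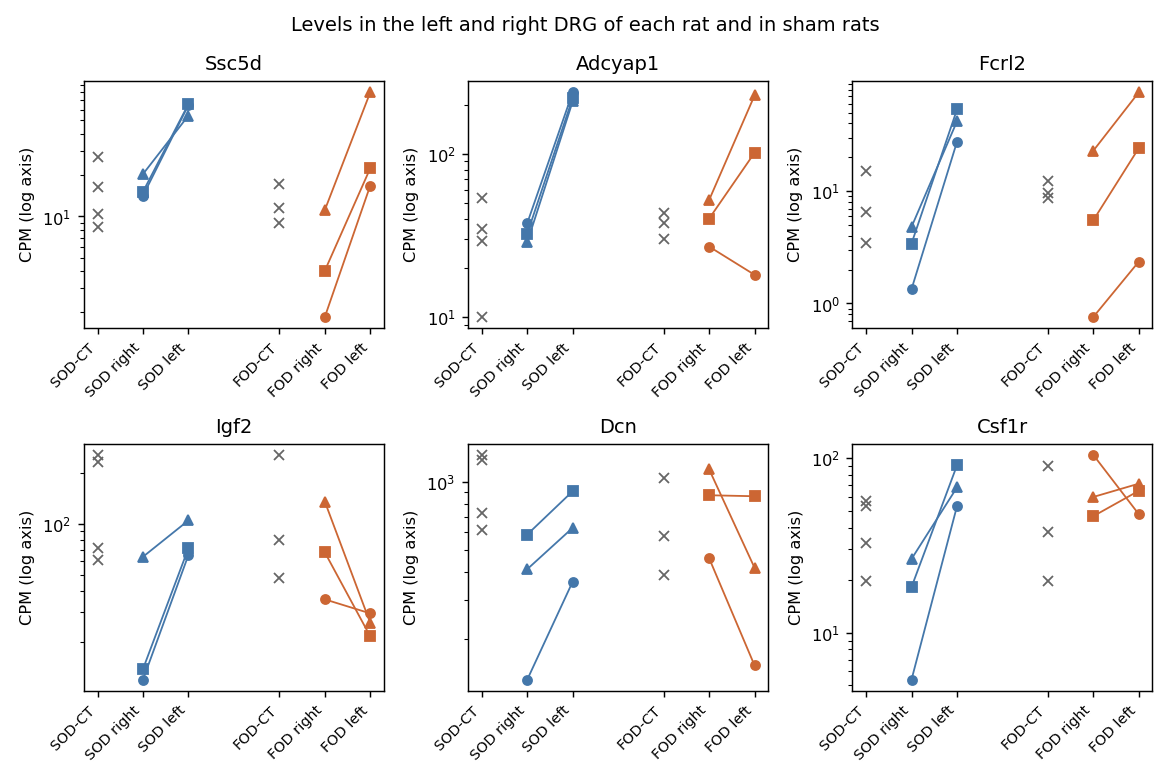
Levels in CPM (log axis) of 6 genes, with a line from the right to the left DRG of each rat (circle, square and triangle for replicates 1, 2 and 3) and crosses for sham rats of each diet; 1 SOD-CT library with no count of Fcrl2 is not drawn. For Igf2 and Dcn the lines climb in the 3 SOD-CCI rats and descend or stay level in the 3 FOD-CCI rats, and within a rat the lower point is on the right on SOD and on the left on FOD.

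The 6 genes with the smallest unadjusted p among those lower on FOD were Itgbl1, Gjb2, Igf2, Gpc3, Crispld2 and Slc16a11, several of them known from fibroblasts and matrix. Each of these 6 was higher on the left in the 3 SOD-CCI rats and lower on the left in the 3 FOD-CCI rats. Fewer members of the fixed lists did so, 3 of 6 fibroblast markers and 2 of 13 matrix genes. Over all genes, 197 were higher on the left in 3 of 3 SOD-CCI rats and lower in 3 of 3 FOD-CCI rats (1.35%), and 140 showed the reverse (0.962%). Gjb2, which encodes the gap junction protein connexin 26, had log2 ratios of 2.31, 2.57 and 0.50 on SOD and -1.64, -2.83 and -3.06 on FOD. Slc16a11, a monocarboxylate transporter, had 2.30, 2.39 and 0.32 on SOD and -2.17, -0.93 and -3.32 on FOD. The diets did not overlap in either gene, with differences of -4.37 ± 0.75 and -3.84 ± 0.76 (unadjusted p = 0.000261 and 0.000695, edgeR adjusted p = 0.997 for both).

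Igf2, an insulin-like growth factor made by mesenchymal cells, had ratios of 2.45, 2.37 and 0.71 on SOD and -0.28, -1.65 and -2.38 on FOD. Its right DRG held 11.9, 13.8 and 63.7 CPM on SOD and 35.7, 67.7 and 135 CPM on FOD, and its left DRG 65.3, 71.7 and 105 CPM on SOD and 29.4, 21.5 and 25.9 CPM on FOD. Sham rats held 47.6 to 255 CPM, so the right libraries of SOD-CCI replicates 1 and 2 and the left libraries of the 3 FOD-CCI rats were below every sham library. The difference of -3.30 ± 0.64 (unadjusted p = 0.000584, edgeR adjusted p = 0.997) was -3.87 without FOD-CCI replicate 1, and DESeq2 called it (adjusted p = 3.66e-05). Gpc3, a cell-surface proteoglycan, had 2.54, 0.78 and 0.54 on SOD and -1.29, -1.12 and -2.09 on FOD. Itgbl1, a matrix-associated integrin-like protein, had 1.18, 1.05 and 0.43 on SOD and -1.65, -0.71 and -1.33 on FOD, with a difference of -2.12 ± 0.36 (unadjusted p = 0.000243, edgeR adjusted p = 0.997). Crispld2, a secreted glycoprotein, had 1.41, 0.56 and 0.38 on SOD and -1.09, -0.57 and -1.09 on FOD. Of the SOD-CCI rats, replicate 3 had the smallest ratio in each of these 6 genes.

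All 6 fibroblast markers had a lower change on FOD, 4 of them at an unadjusted p under 0.05 (2.11% of all genes tested), and 4 had FOD ratios wholly below the SOD ratios (5.15% of all genes tested). Their median per rat was 1.46, 0.62 and 0.49 on SOD and -1.11, -0.03 and -1.31 on FOD. Dcn and Lum encode decorin and lumican, small proteoglycans that bind collagen. Dcn showed ratios of 1.45, 0.64 and 0.61 on SOD and -1.58, -0.01 and -1.45 on FOD. Lum showed 1.99, 0.98 and 0.37 on SOD and -2.32, -0.04 and -1.42 on FOD. FOD-CCI replicate 2 was near 0 in both. The differences were -1.92 ± 0.47 and -2.37 ± 0.62, and -1.63 and -1.83 without FOD-CCI replicate 1. Pdgfra, the receptor that marks fibroblasts, had 1.45, 0.61 and 0.26 on SOD and -1.08, -0.13 and -1.80 on FOD.

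Of 13 matrix and matrix-remodelling genes tested, 12 had a lower change on FOD, 7 of them at an unadjusted p under 0.05 (2.11% of all genes tested), and 7 had FOD ratios wholly below the SOD ratios (5.15%). The median difference was -0.74. The exception was Ssc5d, described above. Postn, the matrix protein periostin, had ratios of 1.66, 2.53 and 1.10 on SOD and -0.22, -0.24 and -1.19 on FOD. Mmp2, a gelatinase, had 0.85, 0.77 and 0.53 on SOD and -0.36, 0.04 and -0.49 on FOD. The summed fibroblast markers were 405, 2540 and 1477 CPM on the right and 1176, 2430 and 2042 CPM on the left of the SOD-CCI rats. In the FOD-CCI rats they were 1180, 1999 and 2831 CPM on the right and 501, 2057 and 1291 CPM on the left. Sham libraries ranged from 1102 to 3276 CPM, so only the right library of SOD-CCI replicate 1 and the left library of FOD-CCI replicate 1 lay below them.

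A list of 15 genes of the leptomeninges and arachnoid, the membranes that continue onto the dorsal root, was written after the values had been seen and is given as a description without a test. Their summed level was 153, 167 and 753 CPM on the right and 540, 1049 and 689 CPM on the left in the SOD-CCI rats. In the FOD-CCI rats it was 1337, 751 and 2323 CPM on the right and 1073, 333 and 210 CPM on the left, and sham libraries ranged from 312 to 3124 CPM. The sum was thus lower on the left in the 3 FOD-CCI rats and higher on the left in 2 of 3 SOD-CCI rats. In FOD-CCI replicate 1 the list member Cldn11 alone held 741 CPM on the right and 498 CPM on the left. In the other libraries of the comparison Cldn11 held 3.99 to 123 CPM. Both libraries of that rat also held many spinal cord markers, as given above, and their part in this sum was not tested. Ptgds, a prostaglandin D synthase abundant in meningeal cells, had 19.0, 25.2 and 401 CPM on the right and 297, 577 and 323 CPM on the left on SOD, against 318, 309 and 1279 CPM on the right and 313, 71.0 and 62.8 CPM on the left on FOD. Whether the amount of covering tissue in each ganglion plays a part in the differences of the connective-tissue genes was not tested.

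**Figure D4:**
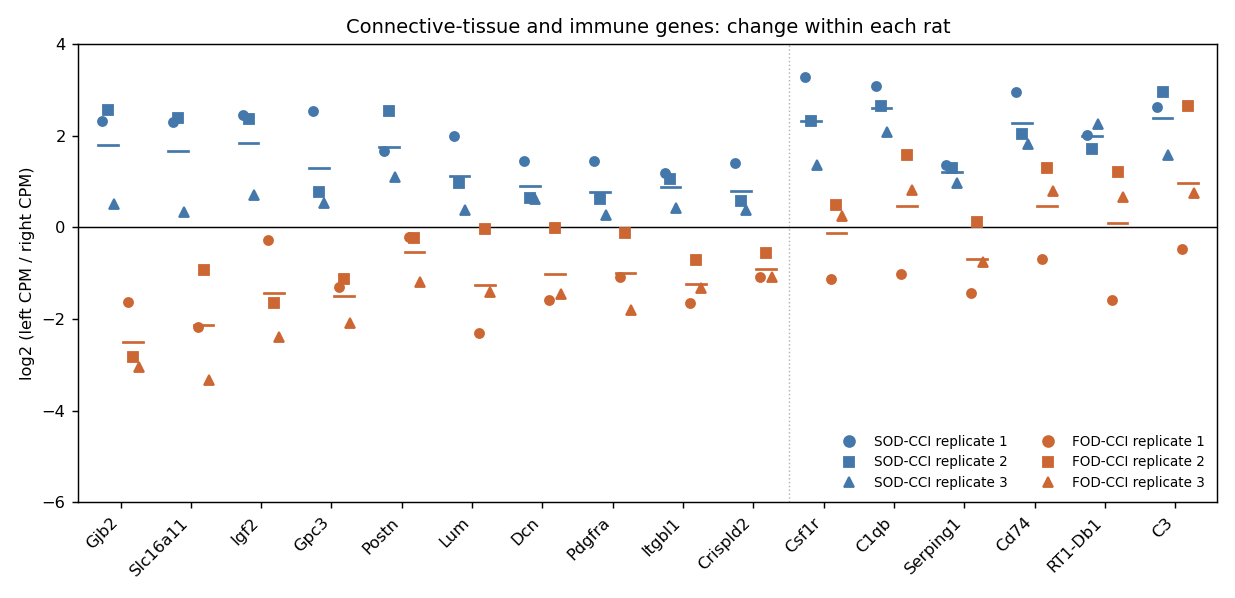
Log2 left-to-right ratio of CPM for 10 connective-tissue genes and, after the dotted line, 6 immune genes in each rat, with a bar at the mean of each diet. The 10 connective-tissue genes drawn are ones that lie above 0 in the 3 SOD-CCI rats and below 0 in the 3 FOD-CCI rats. Of the fixed lists, only 3 of 6 fibroblast markers and 2 of 13 matrix genes did so. The immune genes are above 0 on SOD and lowest in FOD-CCI replicate 1.

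Most complement, macrophage and MHC class II genes had a smaller left-to-right change on FOD, and no difference was called. Neutrophil markers went the other way, with 5 of 5 higher on FOD, a median difference of 0.57 and one of 2.16 without FOD-CCI replicate 1. The left library of FOD-CCI replicate 2 held 3094 CPM of them, against 5.79 to 451 CPM in the other 11. Ccl2 had similar ratios on both diets, as given above. All 10 complement genes tested had a lower change on FOD, 5 of them at an unadjusted p under 0.05 (2.11% of all genes tested), and the median difference was -1.67. Their median per rat was 2.47, 1.91 and 1.11 on SOD and -0.99, 1.74 and 0.22 on FOD, so FOD-CCI replicate 2 lay within the range of the SOD-CCI rats. C1qb, a chain of the C1q recognition molecule, had ratios of 3.09, 2.65 and 2.09 on SOD and -1.02, 1.58 and 0.82 on FOD. Serping1, the inhibitor of C1, had 1.36, 1.29 and 0.98 on SOD and -1.43, 0.12 and -0.76 on FOD. C3, the central component, had 2.64, 2.96 and 1.57 on SOD and -0.47, 2.64 and 0.75 on FOD. C1qb and Serping1 did not overlap between diets and C3 did. The differences of C1qb and C3 were -2.13 ± 0.63 and -1.45 ± 0.76, and -1.41 and -0.70 without FOD-CCI replicate 1. Serping1 differed by -1.90 ± 0.39 (unadjusted p = 0.000877, edgeR adjusted p = 0.997, DESeq2 adjusted p = 0.00507), and by -1.53 without FOD-CCI replicate 1. Without that rat all 10 complement genes still had a lower change on FOD, with a median of -0.99.

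Of 9 macrophage markers tested, 8 had a lower change on FOD, with a median difference of -1.60 with all rats and -1.03 without FOD-CCI replicate 1. Csf1r, the receptor for Csf1, had ratios of 3.29, 2.32 and 1.36 on SOD and -1.13, 0.48 and 0.25 on FOD. Its left levels were alike on the diets, at 53.1, 91.1 and 68.1 CPM on SOD and 47.8, 65.1 and 71.5 CPM on FOD. Its right levels were 5.37, 18.3 and 26.5 CPM on SOD and 105, 46.6 and 60.0 CPM on FOD, with no overlap, and sham libraries held 19.8 to 90.3 CPM. The lower FOD ratio of Csf1r therefore went with a higher right level. The difference was -2.44 ± 0.57 (unadjusted p = 0.0021, edgeR adjusted p = 0.997, DESeq2 adjusted p = 0.00487), and -1.94 without FOD-CCI replicate 1. The summed macrophage markers showed the same, with 35.7, 69.6 and 90.02 CPM on the right on SOD and 518, 156 and 272 CPM on the right on FOD, while the left sums were 212, 321 and 266 CPM on SOD and 283, 403 and 393 CPM on FOD. The right levels of 105 CPM for Csf1r and 518 CPM for the sum were those of FOD-CCI replicate 1. The sham level of 90.3 CPM for Csf1r was that of FOD-CT replicate 1. Both libraries held many spinal cord markers, as given above, and their part in these levels was not tested.

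All 4 genes of MHC class II presentation tested had a lower change on FOD, 3 of them at an unadjusted p under 0.05 (2.11% of all genes tested), with a median difference of -1.82, or -1.14 without FOD-CCI replicate 1. Cd74, the invariant chain, had 2.96, 2.04 and 1.81 on SOD and -0.68, 1.29 and 0.78 on FOD. RT1-Db1, a class II beta chain, had 2.02, 1.70 and 2.25 on SOD and -1.59, 1.21 and 0.65 on FOD. The 3 FOD ratios were below the 3 SOD ratios in both genes, and FOD-CCI replicate 1 was the only rat below 0. Cd4, on T cells and, in rats, also on macrophages, had 3.31, 2.26 and 1.61 on SOD and -1.61, 1.16 and 1.37 on FOD. The differences of RT1-Db1 and Cd4 were -1.85 ± 0.65 and -2.00 ± 0.83, and -1.06 and -1.10 without FOD-CCI replicate 1. Among 8 chemokine and receptor genes, 6 had a lower change on FOD, with a median of -0.28, or -0.17 without FOD-CCI replicate 1. Of 11 interferon response genes, 10 had a lower change on FOD and 1 did so at an unadjusted p under 0.05. That gene was Gbp2, a GTPase induced by interferon, with 1.25, 0.85 and 1.52 on SOD and -0.93, 1.01 and 0.19 on FOD, a difference of -1.11 ± 0.47, or -0.61 without FOD-CCI replicate 1.

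**Figure D5:**
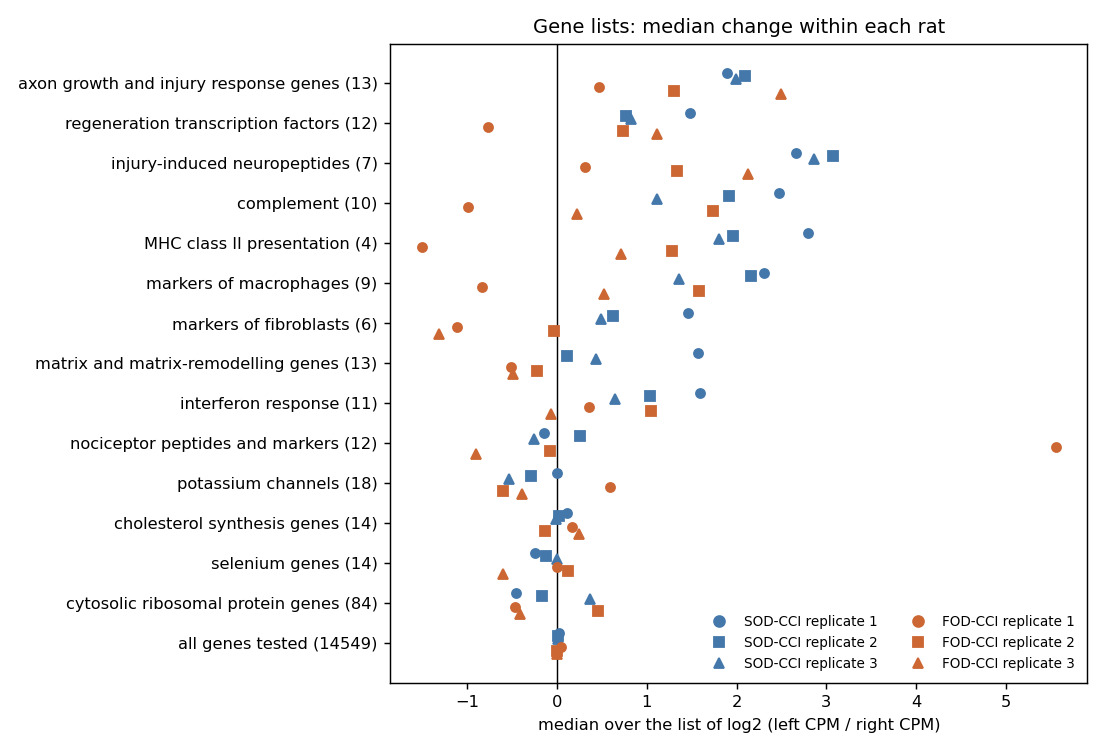
Median log2 left-to-right ratio of CPM over the tested genes of 15 lists (number tested in brackets) in each of the 6 rats. The 3 SOD-CCI rats lie above the 3 FOD-CCI rats for MHC class II genes, fibroblast markers, matrix genes and injury-induced neuropeptides, and FOD-CCI replicate 1 alone reaches 5.55 for nociceptor genes.

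Median differences of the ion channel lists changed sign with FOD-CCI replicate 1. With all rats they were 0.024 for 18 potassium channel genes, 0.0046 for 11 calcium channel genes, 0.30 for 11 sodium channel genes and 0.28 for 12 sensory transducer channels, against 0.034 over all genes tested. Without that rat they were -0.10, -0.35, -0.20 and -0.29 in the same order. Neuronal markers were low in the right library of FOD-CCI replicate 1, as given above, and their part in these ratios was not tested. For 12 nociceptor peptides and markers the median ratio was 5.55 in that rat and -0.90 to 0.25 in the other 5, and the median difference was 0.89, or -0.54 without that rat. Calca, which encodes the peptide CGRP, had ratios of 0.57, 1.06 and 0.54 on SOD and 4.90, 0.43 and -0.57 on FOD. P2rx3, an ATP-gated channel of nociceptors, had 0.84, 1.14 and -0.18 on SOD and 5.33, 0.03 and 0.31 on FOD. Trpa1, a channel for irritants, had 0.47, 1.24 and 0.60 on SOD and 4.67, 0.04 and -0.22 on FOD. With all rats the differences were 0.55, 0.88 and 0.30 and each was smaller than its SE, and without FOD-CCI replicate 1 they were -0.79, -0.43 and -0.86.

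Some neuronal genes were lower on the injured side of every SOD-CCI rat. Scn1a, a sodium channel of large sensory neurons, had ratios of -1.27, -1.13 and -1.24 on SOD and 0.60, -0.51 and -0.85 on FOD. Kcns1, a modulatory potassium channel subunit, had -1.38, -2.16 and -1.63 on SOD and 4.05, -1.45 and -1.56 on FOD. FOD-CCI replicates 2 and 3 were below 0 in both genes, and replicate 1 was above 0. The differences of Scn1a and Kcns1 were 0.95 ± 0.38 and 1.58 ± 1.29, and 0.54 and 0.22 without replicate 1. Cnr1, the cannabinoid receptor CB1, was called on SOD (-1.49 ± 0.21, edgeR adjusted p = 0.0548) and lower on the left in 6 of 6 rats. Its ratios were -1.23, -1.76 and -1.48 on SOD and -0.13, -0.69 and -0.70 on FOD without overlap, a difference of 0.99 ± 0.29 (unadjusted p = 0.00734, edgeR adjusted p = 0.997) that was 0.80 without FOD-CCI replicate 1. Scn3a, the sodium channel that returns after axon injury, had 1.56, 2.75 and 1.84 on SOD and -0.41, 1.05 and 2.31 on FOD, a difference of -1.07 ± 0.77, or -0.36 without FOD-CCI replicate 1.

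Kcnk2, a mechanically gated leak channel, had ratios near 0 on SOD (0.04, 0.06 and 0.12) and below 0 on FOD (-0.49, -1.18 and -1.06). Kcnd2, an A-type potassium channel, varied between SOD-CCI rats (-1.11, 1.76 and 0.35) and was below 0 in the FOD-CCI rats (-0.50, -2.11 and -1.69). In FOD-CCI replicate 1 Kcnd2 stood at 75.3 CPM on the right and 53.1 CPM on the left, against 0.4785 to 7.075 CPM in the other libraries of the comparison. The Kcnk2 difference was -0.99 ± 0.33 and became larger in size, -1.19, without FOD-CCI replicate 1. Slc1a3, the glutamate transporter of satellite glia, had -0.41, 0.11 and -0.11 on SOD and -1.39, -0.62 and -1.28 on FOD, with no overlap and a difference of -0.96 ± 0.30 (unadjusted p = 0.0101, edgeR adjusted p = 0.997). The Slc1a3 difference was -0.81 without FOD-CCI replicate 1. In that rat Slc1a3 stood at 362 CPM on the right and 138 CPM on the left, against 19.0 to 46.2 CPM in the other libraries of the comparison. Gja1, the satellite glial gap junction protein connexin 43, had 0.17, 0.37 and -0.16 on SOD and -0.80, 0.01 and -0.43 on FOD, a difference of -0.53 ± 0.30, or -0.33 without FOD-CCI replicate 1. In FOD-CCI replicate 1 Gja1 stood at 549 CPM on the right and 316 CPM on the left, against 39.7 to 61.9 CPM in those other libraries. Spinal cord markers were also high in this rat, as given above, and their part in these ratios was not tested. All 7 satellite glial markers had a lower change on FOD, with a median of -0.16, or -0.091 without FOD-CCI replicate 1, while their summed level lay between 3233 and 5536 CPM in the 12 libraries. Apoe alone held 2557 to 4922 CPM of that sum. All 7 endothelial markers also had a lower change on FOD, with a median of -0.32 and -0.04 without FOD-CCI replicate 1. Vwf, a clotting protein of endothelium, had 1.57, 0.15 and 0.00 on SOD and -1.58, -0.44 and -0.40 on FOD, and Cdh5, the endothelial cadherin, had 0.93, 0.21 and 0.46 on SOD and -0.44, -0.10 and -0.70 on FOD.

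The genes with the leading positive differences were of mixed kinds. Blm, a DNA helicase, had ratios of -0.43, -0.22 and -0.52 on SOD and 1.96, 1.08 and 2.40 on FOD. Its right DRG held 14.7, 8.79 and 8.83 CPM on SOD and 2.57, 5.82 and 1.63 CPM on FOD, and its left DRG 10.9, 7.52 and 6.15 CPM on SOD and 10.2, 12.4 and 8.86 CPM on FOD. The gap was thus on the right, where 3 FOD libraries lay below the sham range of 6.70 to 13.7 CPM. The difference was 2.22 ± 0.53 (unadjusted p = 0.00245, edgeR adjusted p = 0.997, DESeq2 adjusted p = 0.0753). Gfm1, a mitochondrial translation elongation factor, had -0.71, -0.35 and -0.64 on SOD and 0.66, 0.86 and 0.23 on FOD. Naxd, an enzyme that repairs hydrated NADH, had -0.35, -0.27 and -0.32 on SOD and 0.90, 0.57 and 0.54 on FOD. Mcts2, a translation re-initiation factor, had -1.14, -0.42 and -0.13 on SOD and 1.41, 0.88 and 0.82 on FOD. Dusp5, a phosphatase of ERK kinases, had -1.03, -3.03 and -1.68 on SOD and 0.76, 0.32 and 0.03 on FOD. In all 5 genes the 3 SOD ratios were below 0 and the 3 FOD ratios above 0. Leaving out FOD-CCI replicate 1 moved the differences little, for example from 2.22 to 2.14 for Blm and from 2.29 to 2.10 for Dusp5.

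Lipid and redox genes had side differences close to those of all genes. The median difference was -0.011 for 14 fatty acid desaturase, elongase and lipogenic genes, -0.05 for 14 cholesterol synthesis genes, 0.08 for 14 PPAR target and fatty acid oxidation genes and 0.07 for 14 selenium and glutathione peroxidase genes. Without FOD-CCI replicate 1 the medians were 0.0024, -0.0020, -0.059 and -0.0011. No member of these 4 lists reached an unadjusted p under 0.05 for the diet difference. Plin2, a lipid droplet protein, was higher on the left in 6 of 6 rats (0.67, 0.75 and 0.76 on SOD, 0.41, 0.37 and 0.76 on FOD). Txnrd1, a selenoprotein that reduces thioredoxin, was also higher in 6 of 6 rats, at 0.79, 0.68 and 0.60 on SOD and 0.41, 0.02 and 0.80 on FOD. Cbs, an enzyme of the transsulfuration pathway that feeds glutathione synthesis, was lower on the left in 6 of 6 rats, at -0.92, -0.18 and -0.63 on SOD and -1.05, -0.84 and -1.16 on FOD. The diets overlapped, and the difference was -0.42 ± 0.49. Elovl2, which elongates polyunsaturated fatty acids, had -0.88, -0.56 and -0.32 on SOD and 1.02, -0.26 and -0.14 on FOD, with a difference of 0.78 ± 0.38 that was 0.38 without FOD-CCI replicate 1. Atf4, the factor of the integrated stress response, was higher on the left in 6 of 6 rats, at 0.24, 0.62 and 0.36 on SOD and 0.85, 0.41 and 0.51 on FOD, with a difference of 0.18 ± 0.27 that was 0.060 without FOD-CCI replicate 1. Ribosomal protein genes (84 tested) had a median difference of -0.10 and oxidative phosphorylation subunit genes (78 tested) one of 0.25, both lists having been added after values were seen. Without FOD-CCI replicate 1 these were 0.040 and 0.038. Of the 44 tested genes that the study names for these ganglia, a list chosen on these samples, 24 had a higher and 20 a lower change on FOD, with a median of 0.06, or -0.074 without FOD-CCI replicate 1.

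Median differences of further neuronal and metabolic lists are given with all rats and then without FOD-CCI replicate 1. They were 0.88 and -0.07 for 8 neurofilament and axon cytoskeleton genes, 0.12 and -0.025 for 6 opioid and cannabinoid receptor genes, and 0.058 and -0.020 for 10 glutamate-handling genes. They were -0.11 and -0.031 for 10 GABA receptor and chloride cotransporter genes and 0.11 and -0.068 for 12 genes of synaptic vesicle release. No member of the neurofilament, GABA receptor or vesicle lists had an unadjusted p under 0.05, and 1 opioid or cannabinoid receptor gene (Cnr1) and 1 glutamate gene (Slc1a3) did. For 15 NRF2, iron and ferroptosis genes the medians were -0.056 and 0.0028, for 12 genes of the integrated stress and unfolded protein response 0.18 and 0.094, for 14 phospholipid and neutral lipid enzymes -0.16 and -0.12 and for 9 eicosanoid synthesis genes and omega-3 receptors -0.046 and -0.14. Of these 4 lists, only the eicosanoid list had a member with an unadjusted p under 0.05, Ptgds. Schwann cell markers (8 tested) had a median difference of -0.18, and 0.0044 without FOD-CCI replicate 1, with summed levels from 10280 to 60290 CPM over the 12 libraries. Markers of other tissues moved further, with median differences with all rats and without that rat of -0.21 and 1.80 for 6 red cell markers, -2.60 and -1.62 for 6 skeletal muscle markers, 0.28 and 1.26 for 5 proliferation markers and -2.60 and -0.79 for 2 adipocyte markers. For the 6 tested genes of a perineurium and epineurium list, written after values were seen, they were -1.52 and -1.34. The 10 neuronal markers had medians of 0.59 and 0.058 and the 4 tested spinal cord markers -0.77 and 0.027. The part of these tissues in the results was not tested.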

How the data were processed

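Total RNA of DRG was turned into poly-A libraries and sequenced on an Illumina platform. Per the labels and the study's methods, the authors used fastp for trimming, HISAT2 for alignment and featureCounts 1.5.0-p3 to count reads per gene. The genome build and the setting for strand and for reads that map to several places are not given in the sources used here, so genes with near-identical copies (RT1 and other families) and overlapping genes are uncertain. The deposited values used were raw counts per gene, and the deposited FPKM values were not used. Samples were grouped by the labels, and the rat number in the library names joins the 2 ganglia of a rat. Left and right deviations of a rat correlated at r = 0.14 to 0.43, so the rat was kept as a block.

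A gene entered the test when 11 or more of the 12 libraries had 10 counts or more of it. edgeR 4.0.16 (TMM scaling, quasi-likelihood test, residual degrees of freedom 4, common dispersion 0.14) was fitted in R 4.3.3 to the 12 libraries with rat as a block and side within each diet. Ratios used CPM with a prior count of 2. SE was the log2 change divided by the square root of F. The 1 value per rat was compared by an exact permutation test, two-sided. The test was checked on simulated data. Alternatives were DESeq2 1.42.0, limma 3.58.1, other scaling, filter, block and length settings, and each rat left out. P-values of this fit rest on a spread estimated over the rats of both diets together, 3 a diet. A p for left against right within a diet thus also carries the spread of the other diet's rats. Depth, 22547190 to 54437581 counts a library, limits genes of few CPM.

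The comparison, the gene lists and the genes named were chosen with earlier results of these data known. Genes named were those called, the 6 leading genes each way for the diet difference, and in each list the 2 with the smallest p and the 2 with the largest mean change. Lists are described by counts and medians with no test, and a few of them were added after values were seen. Unnamed genes were counted only. Some items are not reported here.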

Additional observations from a re-analysis of the deposited data

Results flagged for a closer look

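For 17 of the 63 genes named, every SOD-CCI ratio and every FOD-CCI ratio lay on opposite sides of 0. Some of these ratios were close to 0, such as -0.01 for Dcn and -0.04 for Lum in FOD-CCI replicate 2. The FOD minus SOD difference itself was tested by edgeR for each gene, and none passed correction (edgeR adjusted p = 0.997 for all 17). DESeq2's Wald test called several of them, among them Gjb2 and Igf2 (DESeq2 adjusted p = 3.66e-05 for both) and Blm (0.0753). It did not call others, such as Pdgfra (DESeq2 adjusted p = 0.125) and Kcnk2 (0.896). The FOD minus SOD differences in the log2 left-to-right change were below 0 for 12 genes higher on the left on SOD and lower on FOD. They were -4.37 for Gjb2, -3.84 for Slc16a11, -3.30 for Igf2, -2.76 for Gpc3, -2.37 for Lum, -2.34 for Postn, -2.12 for Itgbl1, -1.92 for Dcn, -1.78 for Pdgfra, -1.69 for Crispld2, -0.99 for Kcnk2 and -0.95 for Cdh5. They were above 0 for the other 5 genes, at 2.29 for Dusp5, 2.22 for Blm, 1.61 for Mcts2, 1.15 for Gfm1 and 0.98 for Naxd. Over all genes tested, 1.35% and 0.962% showed the first and the second pattern. Many of the 63 genes were named for a small p of this same difference, so their share cannot be compared with these.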

How the results depend on the processing

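For the diet difference, 0 genes were called by edgeR, by limma on the 6 ratios, with DESeq2 size factors, with the length trend removed, without the replicate block, and without any 1 rat, whereas DESeq2's Wald test called 60 and no filter on low counts 3. With the replicate number as a block across diets edgeR also called 0 (lowest adjusted p = 0.13). The numbers do not pair rats across diets (r = -0.06, -0.09 and -0.13). At an unadjusted p under 0.05 the count was 424, and 651 by DESeq2 and 488 by limma. For left against right on SOD (19 genes), DESeq2 called 466, limma 48, no filter 220, no replicate block 0 and the SOD libraries alone 1461. On FOD (2 genes), DESeq2 called 264, limma 4, no filter 61, no replicate block 0 and the FOD libraries alone 1. Leaving out each rat gave 0 to 471 genes on SOD and 0 to 137 on FOD. The SOD count was 0 without SOD-CCI replicate 1 or 2, 2 without SOD-CCI replicate 3, 55 without FOD-CCI replicate 3 and 471 without FOD-CCI replicate 1. The FOD count was 0 without SOD-CCI replicate 2 or FOD-CCI replicate 3 and 137 without FOD-CCI replicate 1. The size of the side difference kept its direction in every setting run (0.047 to 0.14 with each rat left out). The cause of these shifts was not tested.

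The FOD minus SOD difference kept its direction in 806 of 819 recomputed values of the 63 genes. Without the replicate block it turned for Ccl2 (0.16), Gal (0.55), Trpa1 (-0.59), Calca (-0.31) and P2rx3 (-0.20). With each rat left out it ranged from -0.60 to 0.20 for Ccl2 (above 0 without SOD-CCI replicate 2 or 3 or FOD-CCI replicate 3) and from -0.27 to 0.021 for Pdlim1 (above 0 without FOD-CCI replicate 2). It also turned on leaving out FOD-CCI replicate 1 for Gal, Trpa1, Calca and P2rx3, whose ranges were -1.55 to 0.21, -0.86 to 1.30, -0.79 to 1.93 and -0.43 to 2.14. DESeq2 or no filter brought 16 of the 63 differences past the threshold. Of 17 changes called within a diet, each lost its call in at least 1 setting. Medians of 9 lists moved by more than the spread between rats in at least 1 setting. Precision is set by 3 rats a diet and a biological coefficient of variation of 0.374.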
